A study of Mus musculus with 2 samples.

Results

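Alveolar macrophages are the macrophages that live on the air side of the alveolus. They take up inhaled particles and break down used surfactant, the lipid film that alveolar type II (AT2) cells secrete. Mouse alveolar macrophages derive largely from fetal monocytes that settle in the lung around birth, and they depend on the growth factor GM-CSF, much of it made by AT2 cells, and on the lipid-sensing transcription factor PPARγ. They differ in origin and surface markers from the macrophages of the lung interstitium and from blood monocytes.

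The cells described here are those that the authors annotated as alveolar macrophages in a single-cell RNA sequencing experiment on whole mouse lungs. They numbered 559 of the 18397 cells, 293 of them in the control diet (CD) library and 266 in the high-fat diet (HFD) library. The mice were female BALB/c, and the labels name no other genetic change or treatment. They went onto their diet at an age of 4 weeks, stayed on it for 16 weeks and were 20 weeks old when the lungs were taken. Fat supplied 13% of the energy of CD and 60% of the energy of HFD, and it came from lard in both diets. Protein supplied 27% and 20%, and carbohydrate 60% and 20%. A single library was made for CD and a single one for HFD, from a number of mice that is not given in the sources used here. No test between the diets was therefore possible. Every interval below is over cells alone, for counting error in cell numbers and for the spread between cells in medians. The level is 95%, except for ratios between the medians of the diets. Their intervals join the outer bounds of both medians' 95% intervals and are therefore wider. Differences between diets cannot be told apart from differences between animals or preparations. The 8793 CD cells held 42470977 unique molecular identifiers (UMIs, 1 for each captured transcript) and the 9604 HFD cells 50679251. Both libraries carried 27 cell barcodes in common. Of the alveolar macrophages, 4 had such a barcode, and the other library annotated each as a different cell type.

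The annotation rests on 1 fine cluster, number 13, which held all 559 cells and no cell of another type. The authors named clusters by the mean expression of marker genes, so the levels of markers such as Marco, Chil3 and Ear2 in these cells are part of how the cells were chosen. Those levels were not analysed here, so the label could not be checked against its markers cell by cell. The deposited gene table did record which genes entered the dimensional reduction as highly variable. That flag marked 5.19% of the 19278 genes, was set over all cells of both diets, and says neither in which cells a gene was high nor whether diet changed it.

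Of 12 genes typical of alveolar macrophages, 11 carried the flag. Marco, a scavenger receptor for particles and bacteria, is encoded on chromosome 1, minus strand, between 120474538 and 120505024 (GRCm38). The gene of the secreted chitinase-like protein Chil3 occupies 106147554 to 106167564 of chromosome 3, also on the minus strand. Ear2, of the eosinophil-associated ribonucleases, is found at 44102654 to 44103534 of chromosome 14, plus strand. Its relative Ear1 was flagged as well, and reads of such close paralogs can be hard to assign. The others flagged were Mrc1 (the mannose receptor), Itgax (the integrin CD11c), Car4 (a carbonic anhydrase), Atp6v0d2 (a proton pump subunit), Fabp1 (a fatty acid-binding protein), Plet1 and Krt79. Siglecf, the sialic acid-binding lectin used to sort these cells, was in the table without the flag.

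Of 10 genes for lipid and surfactant handling, 4 were flagged. These were the fatty acid-binding proteins Fabp4 and Fabp5, the lipoprotein lipase Lpl and the cholesterol exporter Abcg1. Of 10 genes of the GM-CSF and TGF-β axis, 3 were flagged, namely Csf2, which encodes GM-CSF itself, Csf2rb, the shared signalling chain of its receptor, and the transcription factor Cebpb.

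Markers that would separate neighbouring myeloid cells were mostly in the set. Of 10 genes of other macrophages, 8 were flagged: the complement genes C1qa, C1qb and C1qc, the chemokine receptor Cx3cr1, and Lyve1, Folr2, Cd163 and Apoe. Of 10 monocyte genes, 9 were flagged, namely Ly6c2, Ccr2, Plac8, Fn1, Vcan, F13a1, Nr4a1, Treml4 and S100a4. Genes of other types annotated in these libraries were looked up too. The AT2 genes Sftpc, Sftpb, Sftpa1, Sftpd, Abca3 and Lamp3 carried the flag in 6 of 6 cases. The neutrophil genes S100a8, S100a9, Retnlg and Csf3r did so in 4 of 4 cases, and among 5 dendritic cell genes Cd209a and Ccr7 were the 2 flagged.

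The next comparison asked how the number of alveolar macrophages related to the AT2 cells whose surfactant they clear. In CD there were 293 alveolar macrophages and 400 AT2 cells, or 0.733 alveolar macrophages per AT2 cell. In HFD there were 266 and 634, or 0.420 per AT2 cell. The HFD library thus held fewer alveolar macrophages and more AT2 cells, and the ratio between diets was 0.573 (0.463 to 0.709). Over the alternative cell filters and AT2 clusters it lay between 0.530 and 0.675. Both AT2 clusters went the same way, with 0.530 (0.420 to 0.669) for cluster 10 and 0.675 (0.507 to 0.897) for cluster 27.

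The same ratio was then taken against each of the 16 other annotated types. It was below 1 for all 16, from 0.503 for alveolar type I (AT1) cells to 0.993 for B cells. The interval lay wholly below 1 for 5 types, none of them immune. The remaining non-immune types, endothelial cells (0.924, 0.773 to 1.10) and pericytes (0.825, 0.657 to 1.04), had intervals that included 1. For AT1 cells, the flat cells of the gas exchange surface, the CD library held 1.58 alveolar macrophages per cell and the HFD library 0.796 (ratio 0.503, 0.391 to 0.647). For ciliated airway cells the ratio was 0.541 (0.325 to 0.891). It was 0.669 (0.552 to 0.810) for fibroblasts and 0.748 (0.578 to 0.968) for myofibroblasts, and AT2 cells completed the 5. Among all 136 pairs of cell types, 28.7% had an interval that excluded 1, so that 5 of 16 is close to what pairs of types in these libraries show in general.

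Against the 9 other immune types no interval excluded 1 in the cells as deposited. For each macrophage, CD had 2.29 alveolar macrophages and HFD 1.74, which is 0.760 times as many (0.564 to 1.02). This interval lay below 1 when cells under 2000 or 3000 UMIs, or under 1% mitochondrial UMIs, were left out, and included 1 again with those under 4000 UMIs left out (0.743, 0.535 to 1.03). For each monocyte, CD had 1.83 and HFD 1.46, or 0.798 times as many (0.604 to 1.06). Without cells under 4000 UMIs this was 0.690 (0.502 to 0.946). Among alveolar macrophages, macrophages and monocytes together, the share of alveolar macrophages was 50.4% for CD (46.3 to 54.6) and, for HFD, 44.3% (40.2 to 48.3).

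They were 7.83% of all CD immune cells (6.99 to 8.74) and 7.08% of all HFD immune cells (6.28 to 7.95), with a ratio between diets of 0.905 (0.763 to 1.07). That interval too lay below 1 with at least 2000 UMIs per cell, at 0.801 (0.671 to 0.955). Taken over all cells, alveolar macrophages were 3.33% of the CD library (2.97 to 3.73) and 2.77% of the HFD library (2.45 to 3.12), so that the intervals of the libraries overlapped, whereas for 29.4% of the 17 types they did not. The ratio of these shares was 0.831, and its own interval (0.701 to 0.985) lay just below 1. It included 1 when cells above 10% mitochondrial UMIs were left out (0.867, 0.728 to 1.03), and when AT2 cells (0.849, 0.717 to 1.01) or fibroblasts (0.854, 0.721 to 1.01) were left out of the total.

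**Figure D1:**
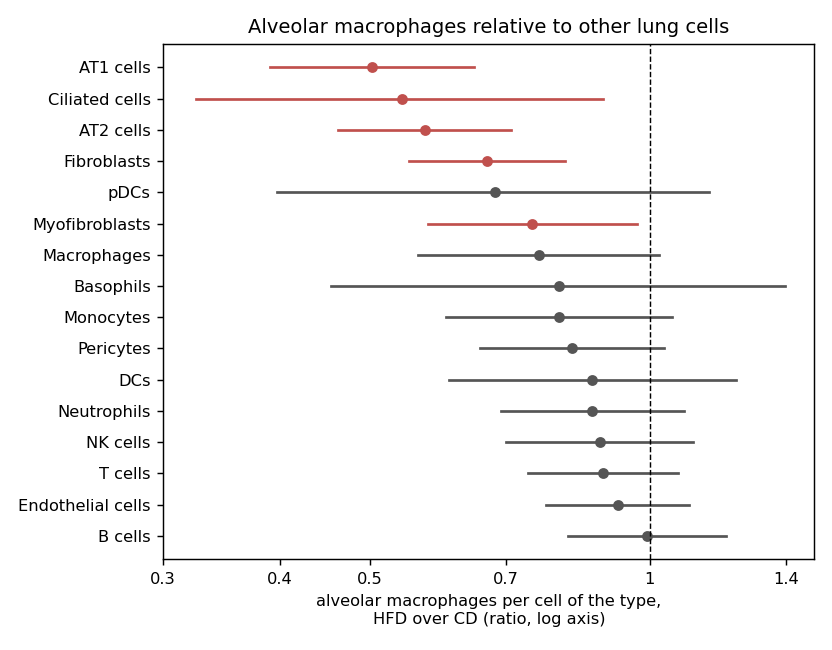
Alveolar macrophages per cell of each of 16 other annotated types, as the ratio of HFD to CD on a log axis; points are ratios and lines 95% intervals for counting error, with 1 library per diet. All 16 points lie below 1, and the 5 intervals that do not reach 1 (AT1, ciliated, AT2 cells, fibroblasts and myofibroblasts, in red) are all of non-immune cells, while the intervals of endothelial cells and pericytes include 1.

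Alveolar macrophages were among the cells with the most UMIs. They gave 7.49% of all CD UMIs from 3.33% of the cells, and 6.69% of all HFD UMIs from 2.77% of the cells. In CD their median of 10841 UMIs (10294 to 11459) ranked 2 of 17 types, just behind AT2 cells. In HFD their median of 13483 UMIs (12485 to 14485) ranked 1 of 17. Macrophages had medians of 6074 in CD and 6714 in HFD, and monocytes of 5065.5 and 6358, so that alveolar macrophages held about as many UMIs as AT2 cells and more than either myeloid neighbour.

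The depth of alveolar macrophages was higher in HFD by a ratio of 1.24 (1.09 to 1.41), and the intervals of the diets did not overlap. The same held for 41.2% of the 17 types, and the ratio of alveolar macrophages ranked 5 of 17, after NK cells, monocytes, neutrophils and ciliated cells. The difference was therefore not particular to them. The intervals of the diets were apart at the median and the 75th percentile, and they overlapped at the 5th, 10th, 25th, 90th and 95th. At the 25th percentile CD cells had 6778 UMIs and HFD cells 8545, at the 75th percentile 14311 and 17124, and at the 95th 20385 and 22636.5. At the 10th percentile the order was the other way, where CD cells had 3002 UMIs (2245 to 3967) and HFD cells 2112.5 (1679 to 3224).

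Detected genes followed the same pattern. The median was 3262 genes for CD cells (3178 to 3351) and 3712.5 for HFD cells (3535 to 3834), 1.14 times as many (1.06 to 1.21). These intervals did not overlap either, as in 41.2% of types. In both libraries the median ranked 2 of 17, behind ciliated cells. The extremes were 396 and 6306 genes in CD and 476 and 5710 in HFD.

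**Figure D2:**
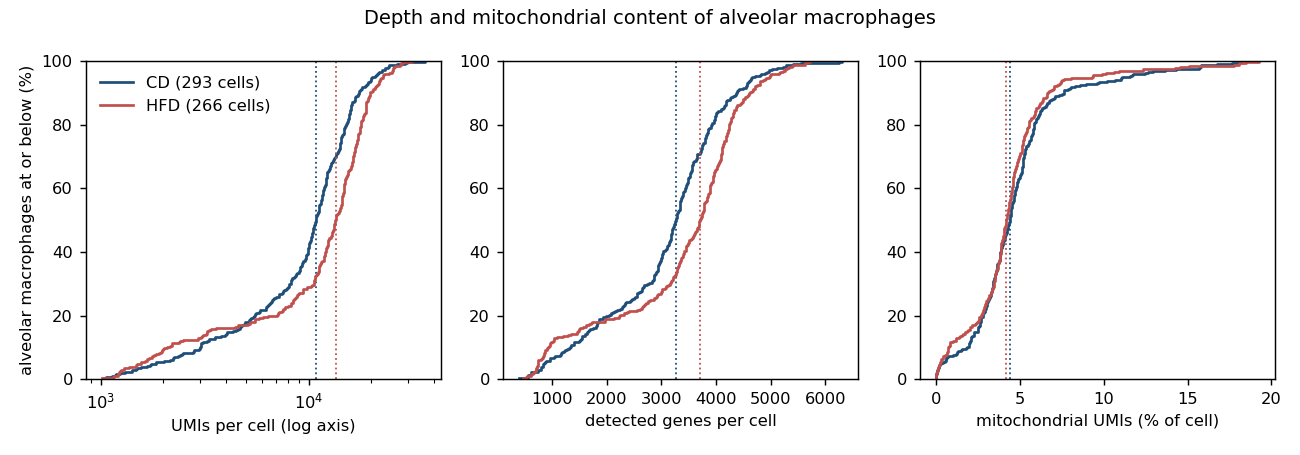
Cumulative share of alveolar macrophages (vertical axis, percent) by UMIs per cell on a log axis, detected genes per cell and mitochondrial percent, for 293 CD and 266 HFD cells; dotted lines mark medians. The HFD curve lies to the right for most of the UMI range, with medians of 13483 and 10841, but to the left at its lower end, while the mitochondrial curves have close medians, 4.40% in CD and 4.19% in HFD, and lie further apart at both ends.

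Genes per UMI, a measure of how many different genes a given number of transcripts covers, was lower in HFD. CD alveolar macrophages had a median of 0.302 (0.294 to 0.309) and HFD alveolar macrophages one of 0.272 (0.264 to 0.283), so that the ratio was 0.900 (0.853 to 0.964). The intervals did not overlap, as in 41.2% of types, and no other type had a lower ratio. The measure falls with depth by its construction. Within 11 bins of 2000 UMIs each, the ratio between diets ranged from 0.928 to 1.04 with a median of 0.977, and it was below 1 in 9 of the 11 bins. Each bin's interval included 1, but the bins held as few as 6 CD or 8 HFD cells. Their intervals were wide, also because they join the outer bounds of both medians' intervals. When each HFD alveolar macrophage was set against CD alveolar macrophages within 10% of its UMIs, the median ratio of detected genes was 0.995 (0.986 to 1.01) over the 218 of 266 HFD cells with enough such partners. In the wider range of 16000 to 24000 UMIs, CD cells had a median of 4561.5 genes (4308 to 4636) at a median of 18749.5 UMIs, and HFD cells 4244 genes (4189 to 4310) at 17936 UMIs. Among cells of like depth the ratio was thus nearer to 1 than over all cells.

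Between cell types a difference remained among cells of like depth, though its direction was not the same at every depth. CD alveolar macrophages had 1.15 times the genes of CD AT2 cells within 10% of their UMIs (1.14 to 1.17), and 226 of 238 alveolar macrophages with enough such partners lay above the median of their AT2 partners. In HFD the ratio was 1.13 (1.12 to 1.15), with 204 of 226 above. Against macrophages of like depth the CD ratio was 1.13 (1.11 to 1.15) and the HFD ratio 1.12 (1.09 to 1.14). Against monocytes they were 1.09 (1.06 to 1.12) and 1.10 (1.06 to 1.14). These 2 comparisons covered 81 and 82 CD cells and 49 and 51 HFD cells, since few macrophages or monocytes reached the depth of alveolar macrophages. Dendritic cells of like depth had fewer genes too, where alveolar macrophages had 1.25 times their genes in CD (1.23 to 1.26) and, for HFD, 1.21 times (1.19 to 1.24). Fibroblasts of like depth had slightly more genes than alveolar macrophages, at 0.984 (0.975 to 0.994) in CD and 0.972 (0.962 to 0.981) in HFD. The order was not the same at every depth. Between 12000 and 16000 UMIs, 13 macrophages of both libraries had a median of 3841 genes (3528 to 4100) and alveolar macrophages one of 3742.5. At 16000 to 24000 UMIs these medians were 4290 and 4307. From 2000 to 4000 UMIs, HFD alveolar macrophages had 1034 genes (914 to 1456), HFD AT2 cells 1126, macrophages 1230 and monocytes 1304. In CD these medians were 1322, 1119, 1109 and 1432.5.

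**Figure D3:**
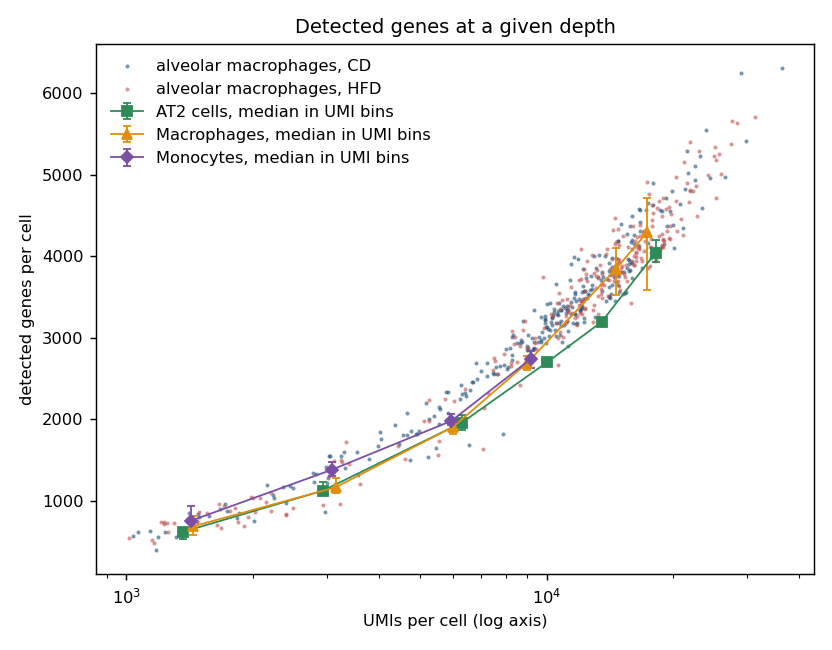
Detected genes (vertical axis) against UMIs per cell on a log axis; small points are single alveolar macrophages of CD and HFD, and larger symbols are medians of AT2 cells, macrophages and monocytes of both libraries in UMI bins, with 95% intervals. CD and HFD alveolar macrophages overlap over most of the range. Between 2000 and 4000 UMIs their medians were 1322 (1175 to 1413) and 1034 genes (914 to 1456), either side of the 1123.5 of AT2 cells, while 134 alveolar macrophages of 8000 to 12000 UMIs had a median of 3185 genes and 322 AT2 cells one of 2700.

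The mitochondrial percent, the share of a cell's UMIs from mitochondrially encoded protein-coding genes, is often high in damaged cells and in cells with many mitochondria. In alveolar macrophages the CD median was 4.40% (4.13 to 4.59) and the HFD median 4.19% (3.97 to 4.42), with a ratio of 0.953 (0.866 to 1.07). The intervals overlapped, whereas they did not for 29.4% of types. The ratio ranked 15 of 17, in libraries where 13 of 17 types had a higher median in HFD. In macrophages the medians were 3.14% for CD (2.93 to 3.31) and 3.64% for HFD (3.33 to 3.90). In level, alveolar macrophages ranked 2 of 17 in CD, after AT2 cells, and 3 of 17 in HFD, after ciliated and AT2 cells.

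At the ends of this distribution, above 10% lay 19 CD (6.48%, 3.95 to 9.94) and 11 HFD alveolar macrophages (4.14%, 2.08 to 7.28). Below 1% lay 21 CD (7.17%, 4.49 to 10.8) and 31 HFD alveolar macrophages (11.7%, 8.06 to 16.1). The same applied to 2.75% of CD AT2 cells (1.38 to 4.87) and to 1.42% of HFD AT2 cells (0.651 to 2.68), although AT2 cells had the higher median. The HFD intervals of both types did not overlap and the CD intervals did.

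Most alveolar macrophages with so few mitochondrial UMIs were also shallow. Under 4000 UMIs there were 41 CD (14.0%, 10.2 to 18.5) and 43 HFD alveolar macrophages (16.2%, 11.9 to 21.1). Of these, 13 CD cells (31.7%, 18.1 to 48.1) and 25 HFD cells (58.1%, 42.1 to 73.0) were below 1% mitochondrial UMIs. From 4000 UMIs upwards 8 of 252 in the CD library (3.17%, 1.38 to 6.16) were below 1%, as were 6 of 223 in the HFD library (2.69%, 0.994 to 5.76). The 38 cells that were low in both had a median of 843 genes and 1929 UMIs. They made up 4.44% of the CD (2.38 to 7.47) and 9.40% of the HFD alveolar macrophages (6.18 to 13.6), which ranked 7 and 4 of 17 types. Neutrophils ranked first, at 70.0% and 67.1%, ahead of basophils and AT1 cells in both libraries. Among macrophages there were 2 of 128 CD and 1 of 153 HFD such cells, among monocytes 5 of 160 and 5 of 182, and among AT2 cells 11 of 400 and 7 of 634. The CD intervals of these 3 types overlapped that of alveolar macrophages. In HFD the intervals of macrophages and AT2 cells did not, and that of monocytes did. With the shallow cells left out, CD cells had a median of 11607 UMIs (10918 to 12171) and HFD cells one of 14636 (13956 to 15216), and their mitochondrial medians were 4.47% and 4.41%. The cuts at 4000 UMIs and 1% were chosen after the values had been seen, and what these cells express was not analysed here.

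The position of the cells in the authors' UMAP plane was described next, against macrophages and monocytes. UMAP places cells with similar expression near each other, while distances between separate groups carry little meaning, and the clusters were themselves drawn in this plane. Separation of the cluster is therefore a property of its definition and not a finding. The 559 alveolar macrophages filled a box of 6.31% of the plane's width and 7.13% of its height at its lower edge, which held no other cell. The 15 nearest cells of each of them were alveolar macrophages, as were the nearest 5 and 50. That held for all cells of 16 of the 17 types with 15 neighbours, so it does not set them apart.

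The gap around alveolar macrophages was the widest of any annotated type. The smallest distance from any of them to a cell of another annotation was 0.384, in units of a plane about 2 wide, against 0.321 for macrophages and 0.0370 for monocytes, which bordered on dendritic cells. The centre of the macrophages lay 0.763 from that of the alveolar macrophages and ranked 2 of 16 types by distance. The centre of the monocytes lay 1.08 away and ranked 4 of 16. Macrophages and monocytes were 0.546 apart and thus nearer to each other than to alveolar macrophages. AT2 cells were among the farthest, at 1.97 and rank 15. The nearest type by centre was endothelial cells at 0.629, and the nearest foreign cell of each alveolar macrophage was endothelial, from cluster 7 for 536 cells and cluster 24 for 23. In each library on its own the same ranks were found.

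**Figure D4:**
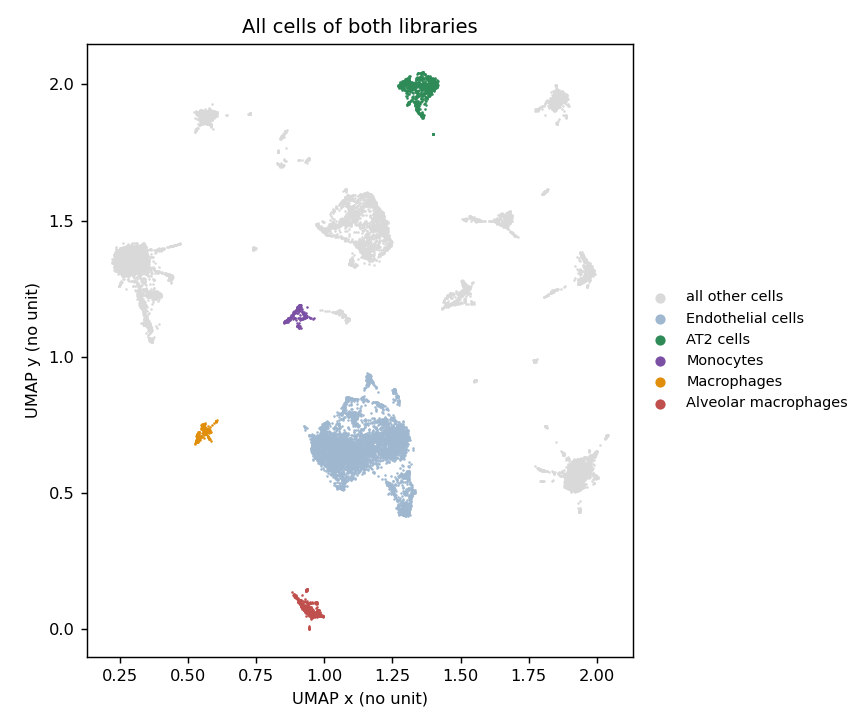
All 18397 cells in the deposited UMAP plane, both axes without unit, with alveolar macrophages, macrophages, monocytes, AT2 and endothelial cells coloured. Alveolar macrophages form a separate island at the lower edge, 0.763 from the centre of the macrophages and 1.08 from that of the monocytes.

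Within the island the cells fell into a curved main body of 527 cells and small islets of 22 and 9 cells, with 1 cell on its own, when cells nearer than 0.015 were linked. The grouping was the same at a distance of 0.01. At 0.02 the islet of 22 joined the main body, and at 0.03 all 559 cells formed 1 group, so that the islets depend on the distance chosen. The islet of 22 lay above the main body and held 14 CD and 8 HFD cells, 4.78% (2.64 to 7.89) and 3.01% (1.31 to 5.84) of the alveolar macrophages of their library. All its cells had at least 8256 UMIs, with a median of 12348.5 UMIs and 4038.5 genes. The islet of 9 lay below and held 7 CD and 2 HFD cells. It was the deepest, at a median of 16594 UMIs (14415 to 23974) and 4578 genes, with a median of 3.33% mitochondrial UMIs. Both islets held cells of both diets, and neither differed detectably in share between them. No caller of doublets could be run on these tables. Doublets were thus not tested. Of the cells above the 99th percentile of UMIs in their library, 10 of 88 in CD and 11 of 97 in HFD were alveolar macrophages. That was 3.41% of the CD (1.65 to 6.19) and 4.14% of the HFD alveolar macrophages (2.08 to 7.28), against 1% of all cells by definition. AT2 cells, the other deep type, gave more of them, with 18 in CD and 29 in HFD.

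Along the main body, depth and mitochondrial content changed at the left end. When it was divided into 5 parts of nearly equal cell number by the horizontal coordinate, the leftmost 106 cells had a median of 2470.5 UMIs (2147 to 3305), 1077.5 genes and 1.76% mitochondrial UMIs. The other parts had medians of 11431 to 14171 UMIs and 4.30% to 4.81% mitochondrial UMIs. Of the 38 cells that were low in both UMIs and mitochondrial percent, 35 lay in the leftmost part. HFD cells were 48.1% of that part (38.3 to 58.0), close to the 48.4% they made up of the whole main body. The left end thus held mostly shallow cells, 67 of 106 under 4000 UMIs, and they came from both libraries.

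The right end differed between libraries. Beyond a horizontal coordinate of 0.98 lay 29 CD cells and 3 HFD cells, which is 9.90% of the CD (6.73 to 13.9) and 1.13% of the HFD alveolar macrophages (0.233 to 3.26). Beyond 0.97 there were 57 (19.5%, 15.1 to 24.5) and 17 (6.39%, 3.77 to 10.0), and beyond 0.99 there were 15 and 1. Beyond 0.96 there were 80 and 65, and the intervals overlapped. The 32 cells beyond 0.98 were of ordinary quality, with a median of 12299.5 UMIs (11192 to 14322), 3477.5 genes and 4.31% mitochondrial UMIs. The region and its limits were chosen after the plot had been seen, so the difference is a description and was not tested.

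The HFD share also varied along the main body. From left to right the other parts of the main body held 59.0% (49.0 to 68.5), 43.8% (34.1 to 53.8), 53.3% (43.3 to 63.1) and 37.7% (28.5 to 47.7) HFD cells, and against the 48.4% of the whole main body the first of these intervals lay above and the last below. The last part contains the right end described above, with its 57 CD and 17 HFD cells beyond 0.97. Its low HFD share is therefore not a further difference. The median positions of CD and HFD alveolar macrophages were 0.00605 apart, compared to a median distance of 0.0282 of a cell from the centre of all alveolar macrophages. Among the 15 nearest alveolar macrophages, HFD cells averaged 44.7% around CD cells and 53.4% around HFD cells, a difference of 8.67 percentage points. The same difference was -0.382 points in macrophages, 5.28 in monocytes and 1.71 in AT2 cells. In 15 alveolar macrophages all neighbours came from the CD library, and in none did all come from HFD. Neighbours from 1 library alone occurred in none of the 281 macrophages, 342 monocytes or 1034 AT2 cells. The remaining types were not examined in this way.

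**Figure D5:**
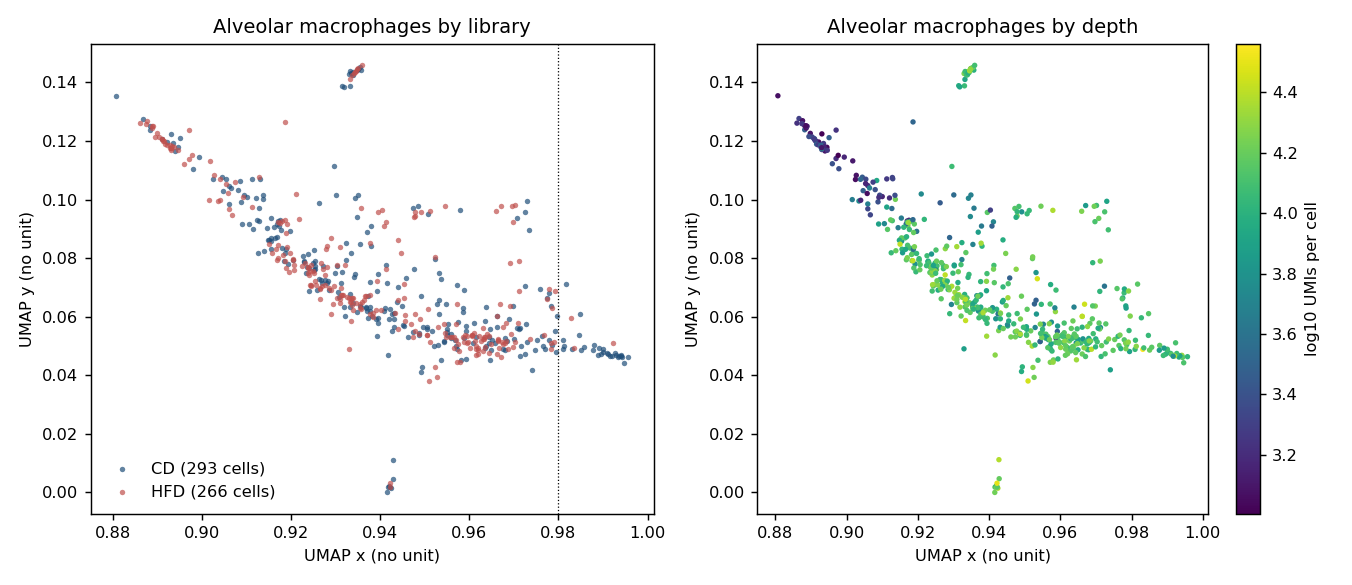
The 559 alveolar macrophages in the UMAP plane, axes without unit, coloured by library on the left and by log10 UMIs per cell on the right; the dotted line marks a horizontal coordinate of 0.98. Shallow cells of both libraries gather at the upper left end, and of the 32 cells right of the line 29 are from CD.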

How the data were processed

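Reads were mapped by the authors with Cell Ranger to GRCm38.p6 (mm10), and Seurat (4.1.0 per the submitters' processing notes) merged both libraries. The labels and the methods differ on the chemistry, which is 3' in the former and 5' in the latter. The methods give limits of at most 20% mitochondrial RNA and at least 500 UMIs and 250 genes, while the smallest cell in the table had 1000 UMIs. Of the deposited values, UMIs and genes are raw counts per cell, mitochondrial content is a percent of those counts per the file headers, and the UMAP coordinates are scores without unit. The authors computed them from 1000 highly variable genes and 50 principal components with 15 neighbours, clustered cells in that plane with the Louvain algorithm, and annotated the fine clusters by hand. The coordinates may have been rescaled.

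The diet of a cell was read from the library named in its row. Shares received exact (Clopper-Pearson) intervals, ratios of shares exact conditional binomial intervals, cells per cell conditional exact odds ratio intervals, and medians order-statistic intervals, whose outer bounds gave the intervals of ratios. The calculations were tested on simulated data, except for the intervals of ratios of medians. Cells are not replicates, so no p-value was computed. Since the values of single genes were not analysed here, cells could not be thinned to a common depth. Genes were instead compared in bins of 2000 UMIs with at least 5 cells of each library, and with at least 10 partners within 10% of the UMIs. Alternatives tried included minimums of 500 genes and of 2000 and 3000 UMIs, at most 10% mitochondrial UMIs, removal of the 1% of cells with most UMIs, other totals, means, and other neighbour numbers. All genes of the lists that carried the flag, and all of the first list, were named. Members and lists were chosen with earlier results of these data known. Gene positions are from GENCODE M21 (GRCm38). Python 3.11.15, numpy 2.4.6, pandas 2.3.3, scipy 1.17.1 and matplotlib 3.10.9 were used.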

Additional observations from a re-analysis of the deposited data

How the results depend on the processing

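Minimums of 4000 UMIs and of 1% mitochondrial UMIs, and removal of cells whose barcode occurred in both libraries, were settings added once the data were known. Of 103 alternative values, 99 lay inside the reported value's own interval (for UMAP distances, within 1 SD over alveolar macrophages), 4 moved further and 0 changed direction. Some of these settings changed few cells and could hardly move a value. Leaving basophils out of the total, for example, gave 0.831 again. The share of immune cells moved from 0.905 to 0.763 with at least 3000 UMIs and to 0.712 with at least 4000. With log10 genes over log10 UMIs, a different measure from genes per UMI, the ratio was 0.990, and its interval (0.985 to 0.997) excluded 1. Within bins of equal UMIs, genes per UMI moved from 0.900 to 0.977. There cells of like depth are compared, and each bin's interval, wide by its construction, included 1. The other causes were not tested. Of the values that have an interval of their own, 10 were cases in which it came to include 1 or no longer did so. The share of all cells, reported as 0.831 (0.701 to 0.985), included 1 under the limit of 10% mitochondrial UMIs (0.867, 0.728 to 1.03), without AT2 cells in the total (0.849, 0.717 to 1.01) and without fibroblasts (0.854, 0.721 to 1.01). The ratio per macrophage no longer included 1 with at least 2000 UMIs (0.728), 3000 UMIs (0.726) or 1% mitochondrial UMIs (0.702), nor did the ratio per monocyte with at least 4000 UMIs (0.690) or the share of immune cells with at least 2000 (0.801). For the ratio of median UMIs the alternatives gave 1.175 to 1.291, and those per AT2 cell 0.530 to 0.675. Taking the 1 fine cluster by itself returned the same cells, and the share of neighbours was at 100% by the way clusters were drawn, so those 5 values say nothing about stability and were not counted. The flags of genes had no alternative. No paired analysis was possible because neither diet had a second library. Small cell numbers limited precision, as with 29 CD and 33 HFD basophils, where the interval for alveolar macrophages per cell was 0.454 to 1.397.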
